A study of Harpegnathos saltator with 47 samples.

Results

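Workers of the ponerine ant Harpegnathos saltator that had spent 120 days in a transition nest were compared with workers of stable colonies, by RNA-seq of brains without optic lobes. In this species a worker can become a reproductive. When a nest has no dominant reproductive, workers duel, and some of them become gamergates, which mate, lay eggs and leave off hunting. The remaining ants stay workers. Both groups compared here therefore have the same caste and differ in the history of their nest: transition workers came from a nest that had lacked a dominant reproductive at its start and stable workers from a colony labelled as stable.

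The members were the 11 ants labelled as workers of transition nests and the 10 labelled as workers of stable colonies, 21 of the 33 ants in the series. The other 12 ants were gamergates of transition nests and were left out. For a transition, 30 females that had emerged 1 to 3 days earlier were moved from mature colonies into a new nest with males, and the ants were taken after 120 days. The stable workers carry the same protocol text and the same day 120. The sources used here give neither their age nor which ants shared a nest or a source colony. Each ant gave 1 column of values, although 9 of the 21 workers had been sequenced in 2 runs. By the run date in the library names, batch A held 2 transition workers and 0 stable workers, batch B held 5 and 5, and batch C held 4 and 5.

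Levels are RPKM, reads scaled by the length of the row and by the depth of the library. Differences were taken on log2(RPKM + 1) as transition minus stable, with batch as a term, so a positive value means a higher level in transition workers. Batch A held no stable worker, so its ants add to the estimate of spread and not to the differences. Rows averaging 0.5 RPKM or more over the 33 ants were tested, 11234 of the 19198 rows of the table. A row was called at an adjusted p under 0.05, from limma with Benjamini-Hochberg adjustment. The files give the rows as IDs without gene names, and 0 of these IDs matched the reference table, so 4 rows are named by ID below and no function is given. For the same reason the labelled tissue could not be checked against brain markers, and gene groups by function could not be counted.

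The libraries of transition workers held 3904954 to 9716266 reads in genes, with a mean of 6270878 ± 1713095 (SD, n = 11), and those of stable workers 5680335 to 11033437, with a mean of 7953988 ± 1816085 (SD, n = 10). The groups overlapped, and the difference had a two-sided p of 0.0628 by permutation of the groups inside each batch (0.136 adjusted over 4 measures of the libraries). In the tests with batch A, its transition workers count in the means but stay in place in every permutation. The permuted differences therefore need not centre on 0. For depth, the exact permutation p without batch A was 0.1115 (adjusted 0.223). The mean correlation of an ant with the other workers was 0.926 ± 0.0237 in transition workers and 0.9405 ± 0.00739 in stable workers (SD, n = 11 and 10; permutation p = 0.0679, adjusted 0.136). For this measure, the exact permutation p without batch A was 0.1056 (adjusted 0.223). Transition worker 10 stood apart, with a mean correlation of 0.862, against 0.917 to 0.947 in the other transition workers. Without it the mean correlations were 0.937 ± 0.0110 in transition workers and 0.944 ± 0.00831 in stable workers (SD, n = 10 each; exact permutation p = 0.218, adjusted 0.4365).

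The brains of the 2 kinds of worker differed in 1 called row. Hsal_09889 fell to 30.2 ± 7.55 RPKM in transition workers (SD, n = 11), against 74.9 ± 27.9 RPKM in stable workers (SD, n = 10). The number of rows called higher in transition workers was 0. At an unadjusted p under 0.05 in limma there were 242 rows, 84 of them (0.748% of those tested) higher and 158 (1.41%) lower in transition workers. The called row is 0.00890% of the 11234 rows tested, and the unadjusted share is 2.15%. That share is below what a threshold of 0.05 passes when no row differs. The second smallest adjusted p in limma was 0.516. In bulk brain tissue, fewer cells of a type and less RNA per cell cannot be told apart.

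Hsal_09889 stood at a lowest of 22.9, a median of 28.4 and a highest of 47.5 RPKM in the 11 transition workers, and at a lowest of 46.8, a median of 63.9 and a highest of 136 RPKM in the 10 stable workers. The groups met at 1 ant each: transition worker 10, at 47.5 RPKM, was above stable worker 7, at 46.8 RPKM, and the other 10 transition workers were below every stable worker. No other tested row had 10 or more of the 11 transition workers beyond every stable worker in either direction, which is again 0.00890% of the rows. The row is 451 bases long by the length behind its RPKM values. Its values rest on 43 to 109 reads per transition worker, 922 in all, and on 120 to 449 reads per stable worker, 2649 in all. Per read of depth, the summed reads of transition workers were 0.401 of those of stable workers, with an exact 95% interval of 0.372 to 0.433 that covers counting error only.

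The difference of Hsal_09889 was -1.24 on the log2(RPKM + 1) scale (SE 0.177, 95% interval -1.61 to -0.87), with an adjusted p of 0.00748 in limma. On that scale the level was 2.36-fold lower in transition workers, with an interval of 1.83-fold to 3.05-fold. Group accounted for 65.4% of the variance of this row between ants after batch had taken 9.43%. The median over all tested rows was 1.34% for group and 21.6% for batch. Hsal_09889 was picked by its p on these same values, so its share for group restates the call and is no further support.

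In batch B, Hsal_09889 had 24.4, 39.0, 22.9, 28.4 and 30.9 RPKM in the transition workers, against 58.2, 82.6, 107.9, 65.8 and 136 RPKM in the stable workers. In batch C it had 24.2, 31.7, 47.5 and 26.1 RPKM in the transition workers, against 57.6, 46.8, 53.3, 78.9 and 62.0 RPKM in the stable workers. The 2 transition workers of batch A had 23.9 and 33.4 RPKM. The groups thus did not overlap in batch B, and in batch C they overlapped through transition worker 10 alone. The difference was -1.55 (SE 0.229) in batch B and -0.89 (SE 0.243) in batch C. The change of the difference between the batches was 0.66, with an adjusted p of 0.742 in limma.

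**Figure D1:**
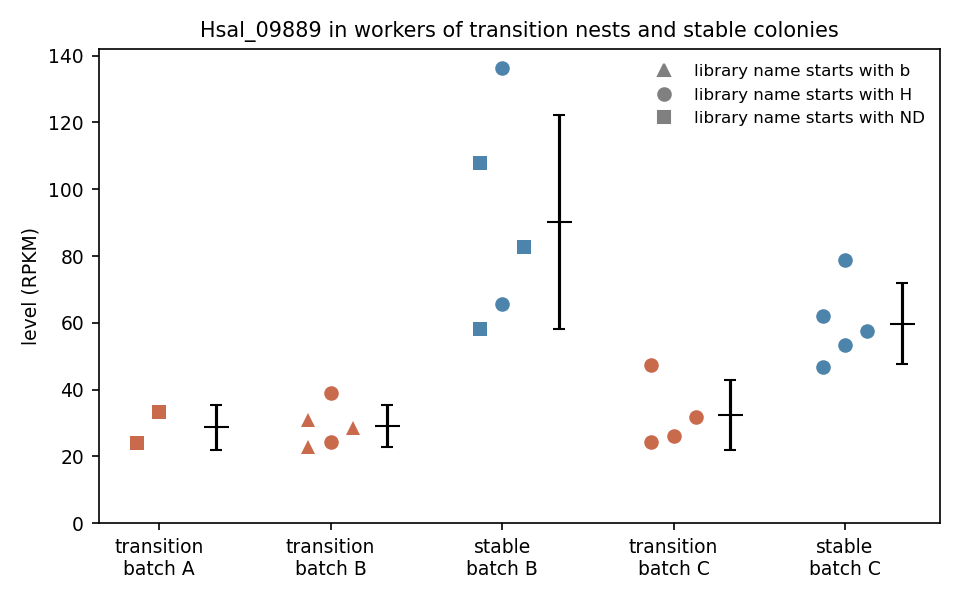
Level of Hsal_09889 in RPKM (vertical axis) for each of the 21 workers, by sequencing batch, with transition workers left of stable workers; each point is 1 ant, its shape gives the prefix of the library name, and black bars are the mean and SD. Transition workers lie between 22.9 and 47.5 RPKM in the 3 batches and stable workers between 46.8 and 136 RPKM in batches B and C.

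With each of the 21 workers left out in turn the difference of Hsal_09889 stayed between -1.35 and -1.14, and the row was called each time, with adjusted p values of 0.000680 to 0.0295 in limma. Leaving out either of the 2 transition workers of batch A cannot move the difference, because that batch held no stable worker. Without transition worker 10, transition workers had 28.5 ± 5.19 RPKM (SD, n = 10) and did not overlap the stable workers. The library names begin with b, H or ND, of unstated meaning, and this prefix was unevenly spread: 3 of 11 transition workers and 0 of 10 stable workers had b, and 2 and 3 had ND. In batch B the transition workers were 2 with H and 3 with b, and the stable workers 2 with H and 3 with ND. Group and prefix can therefore be told apart in batch B only through the ants with H. Among ants with the prefix H, Hsal_09889 had 32.1 ± 9.38 RPKM in 6 transition workers and 71.5 ± 30.3 RPKM in 7 stable workers, a difference of -1.11. That fit gave the row an adjusted p of 1 in limma, and a fit of all 21 ants with the prefix as a term gave it the same difference with an adjusted p of 0.665. The equal difference follows from the design. No batch held b or ND in both groups, so with this term only the ants with H inform the difference. The call was also lost with median-ratio scaling (difference -1.25, adjusted p = 0.0840 in limma) and with limma voom on the recovered reads (difference -1.29, adjusted p = 0.0954). It was lost too in the fits of a single batch and with the replicate number as a block, at the same sign each time.

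The next row by p, Hsal_05026, had a smaller and more even difference that did not pass the threshold. It stood at a lowest of 38.9, a median of 54.2 and a highest of 59.5 RPKM in the 11 transition workers, and at 52.2, 65.7 and 77.2 RPKM in the 10 stable workers. Over all batches the groups overlapped, with 5 of 11 transition workers below every stable worker. Within batch B and within batch C they did not overlap. In batch B, 3 transition workers had the prefix b and 3 stable workers ND, so prefix and group cannot be fully told apart there. In batch B the transition workers had 43.2, 43.2, 40.8, 50.3 and 38.9 RPKM and the stable workers 53.3, 57.0, 67.9, 54.9 and 52.2 RPKM. In batch C the transition workers had 55.8, 57.8, 57.0 and 55.2 RPKM and the stable workers 65.5, 68.9, 68.3, 77.2 and 66.0 RPKM. Batch took 42.3% of its variance and group a further 41.1%. Of the 11234 rows, 73 (0.650%) had groups that did not overlap in batch B and 127 (1.13%) in batch C, and Hsal_05026 was the only one (0.00890%) to do so in both in the same direction. With groups this small, chance alone can give 1 such row among 11234. Hsal_05026 was also named by its p on these same values. The difference was -0.34 (SE 0.0707, 95% interval -0.49 to -0.19), with an adjusted p of 0.516 in limma. It was -0.39 in batch B and -0.29 in batch C.

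Hsal_05026 was also the row whose pattern over the 21 workers was most like that of Hsal_09889, with a Spearman correlation of 0.80 on values centred by batch. With values centred by group and batch the correlation was 0.187. The next 5 rows by this measure were 3 with correlations of 0.722 to 0.757 and 2 with correlations of -0.748 and -0.705. With values centred by group as well, the 3 had 0.288 to 0.634 and the 2 had -0.786 and -0.605. All of these ants share libraries and batches across rows, so these are descriptions with no test.

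On the higher side, Hsal_01138 had the smallest p, at very low levels. It stood at a lowest of 0.285, a median of 1.41 and a highest of 2.66 RPKM in the 11 transition workers, which held 1 to 8 reads each and 50 in all. In the 10 stable workers it stood at 0, 0 and 1.92 RPKM, with 15 reads in all, of which stable worker 2 held 12. Reads were seen in 11 of 11 transition workers and in 4 of 10 stable workers. In the 6 stable workers with 0 reads, a count of 0 allows up to 3 reads, or 0.518 to 0.933 RPKM by library, counting error only. The transition workers' lowest values, 0.285, 0.546 and 0.644 RPKM, lie within or below that range of limits.

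The difference of Hsal_01138 was 0.79 (SE 0.198, 95% interval 0.38 to 1.20) and did not pass the threshold, with an adjusted p of 1 in limma. It was 0.73 in batch B and 0.86 in batch C. At this level the size follows the scale: the difference was 1.21 with 0.5 RPKM added, 2.45 with 0.1 RPKM added and 2.26 with limma voom on the recovered reads, with adjusted p values of 1, 0.445 and 0.180 in limma. Without stable worker 2, whose library was the deepest of the 21, the difference was 0.93 and the adjusted p in limma was 0.0844. Per read of depth the summed reads of transition workers were 3.84 times those of stable workers, with an exact 95% interval of 2.12 to 7.37, counting error only. Without stable worker 2 the stable workers held 3 reads, and the ratio was 16.6, with an interval of 5.35 to 83.0.

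Hsal_11011, the other row named on the higher side, had a lowest of 7.24, a median of 13.1 and a highest of 22.0 RPKM in the 11 transition workers. It had 6.10, 9.15 and 11.5 RPKM in the 10 stable workers. Of the transition workers, 9 of 11 were above every stable worker, and transition workers 4 and 8 were inside the stable range. Over all tested rows, 6 (0.0534%) had at least 9 of 11 transition workers beyond every stable worker in 1 direction. The means were 14.4 ± 4.55 RPKM in transition workers and 9.11 ± 1.53 RPKM in stable workers (SD, n = 11 and 10). The difference was 0.58 (SE 0.171, 95% interval 0.22 to 0.93), with an adjusted p of 1 in limma, and was 0.81 in batch B and 0.31 in batch C.

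**Figure D2:**
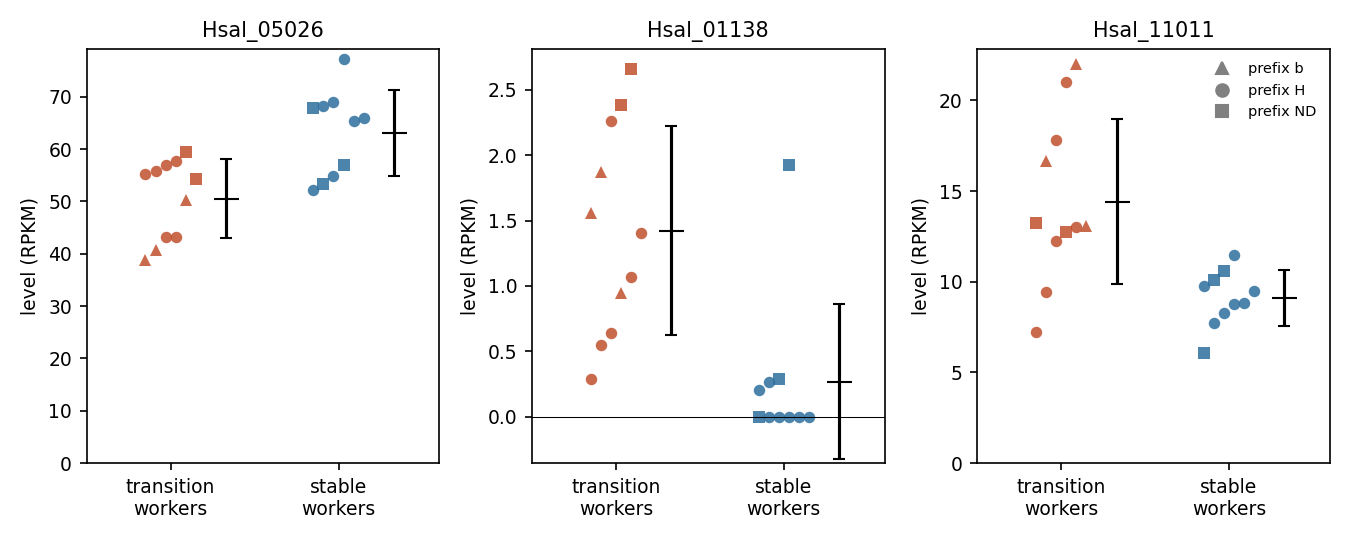
Levels in RPKM (vertical axes, each with its own scale) of Hsal_05026, Hsal_01138 and Hsal_11011 in each of the 21 workers, transition workers left of stable workers; points are ants, their shapes give the prefix of the library name, and black bars are the mean and SD. In Hsal_01138, 6 of 10 stable workers are at 0 and stable worker 2 is at 1.92 RPKM; in Hsal_11011, 9 of 11 transition workers lie above the highest stable worker at 11.5 RPKM.

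The largest differences belonged to rows that varied widely inside each group. The largest, -2.24 with an unadjusted p of 0.0253, was in a gene of 4172 bases at a lowest of 0.0493, a median of 0.553 and a highest of 89.8 RPKM in the 11 transition workers, against 0.326, 18.6 and 217 RPKM in the 10 stable workers. A gene of 2583 bases followed, with a difference of -1.88 and an unadjusted p of 0.0183, at 0, 0.470 and 34.2 RPKM in transition workers and 0.140, 8.64 and 89.6 RPKM in stable workers. Both were under 1 RPKM in 7 of 11 transition workers and in 3 of 10 stable workers. In both, the difference lay mostly in batch C, at -4.03 and -3.30, against -0.65 and -0.62 in batch B. In both the adjusted p in limma was 1. On the higher side the largest differences at an unadjusted p under 0.05 were 1.25 and 1.24. They belonged to genes with medians of 12.8 and 9.79 RPKM in transition workers and 3.80 and 3.16 RPKM in stable workers, and the highest ants of both groups, at 17.4 to 34.9 RPKM, overlapped.

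By level, the counts in each direction were as follows. Transition workers had 14 higher and 57 lower rows at an unadjusted p under 0.05 among the 4899 rows with a mean of 10 to 50 RPKM (1.45% of these), and 4 and 37 among the 1971 rows at 50 RPKM or more (2.08%). They had 27 and 29 among the 1773 rows under 2 RPKM (3.16%) and 39 and 35 among the 2591 rows of 2 to 10 RPKM (2.86%), beside 2.15% over all rows. With all ants, each of these shares is below what a threshold of 0.05 passes when no row differs. The median difference was 0.02 in the lowest of these 4 classes and -0.05 in the highest. At 50 RPKM or more, lower rows outnumbered higher ones also without transition worker 10, at 35 higher and 113 lower, and without transition worker 4, at 7 and 55. In rows of 10 to 50 RPKM the split turned round, to 186 higher and 129 lower without transition worker 10 and to 90 and 72 without transition worker 4. Leaving out either of 2 ants moved the overall split by direction: without transition worker 10 the unadjusted count was 702 (6.25% of the rows tested), with 380 higher and 322 lower, and without transition worker 4 it was 483, with 292 higher and 191 lower. Leaving out any of the other 19 ants gave 196 to 307 rows, of which 29.2% to 41.3% were higher, against 34.7% with all ants.

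Rows of structural and small RNAs were few among those tested. Of 32 rRNA rows, 12 had a higher and 20 a lower level in transition workers, with a median difference of -0.32 and a range of -1.24 to 0.53, and 0 passed even an unadjusted p under 0.05 in limma. Of 34 tRNA rows, which carry amino acids to the ribosome, 16 were higher and 18 lower, with a median of -0.03, and 2 (5.88%) were lower at an unadjusted p under 0.05, beside 1.41% lower over all rows. The 14 snRNA rows, of the splicing machinery, split into 4 higher and 10 lower with a median of -0.17, and the 9 miRNA rows into 3 and 6 with a median of -0.03. Over all 11234 rows the split was 5450 and 5784, with a median of 0.00. The smallest adjusted p in limma was 1 in each of these classes. The libraries were made from polyA RNA, and most RNAs of these classes carry no polyA tail when mature.

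For the 6870 rows at 10 RPKM or more, the 95% interval of the difference on the log2(RPKM + 1) scale lay within 2-fold in both directions in 6634 rows, or 96.6%, and within 1.5-fold in 5637 rows, or 82.1%. The median standard error was 0.159 in rows of 10 to 50 RPKM and 0.144 in rows at 50 RPKM or more. Rows under 10 RPKM are left out of these counts, because adding 1 RPKM shrinks the differences of low rows.

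**Figure D3:**
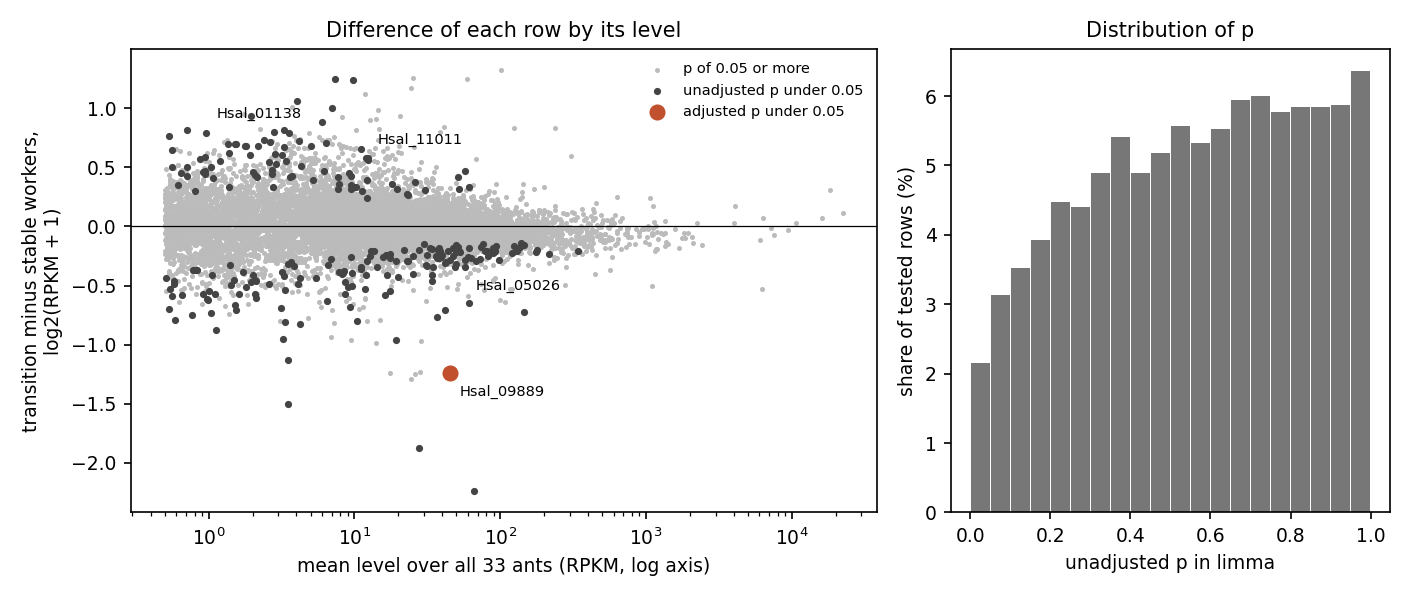
Left, difference of each of the 11234 tested rows on the log2(RPKM + 1) scale, transition minus stable (vertical axis), against its mean level in RPKM (log axis), with the 4 named rows marked; right, share of rows in percent by unadjusted p in limma, in steps of 0.05. The lowest step holds 2.15% of the rows and the highest 6.36% with all 21 ants.

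Across rows, the differences in batches B and C did not run together. Over the 11234 rows the Pearson correlation of the 2 differences was -0.221 and the Spearman correlation -0.262, and 36.5% of rows had the same sign in both. The median difference was 0.08 in batch B and -0.09 in batch C. These are correlations across rows, which are not independent replicates, so no p is given. Without transition worker 10 the Pearson correlation was 0.0191, the Spearman correlation 0.128, the share with the same sign 56.0% and the median difference in batch C -0.01. A direct test of the change between the batches called 0 rows in limma, with 480 (4.27%) at an unadjusted p under 0.05.

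**Figure D4:**
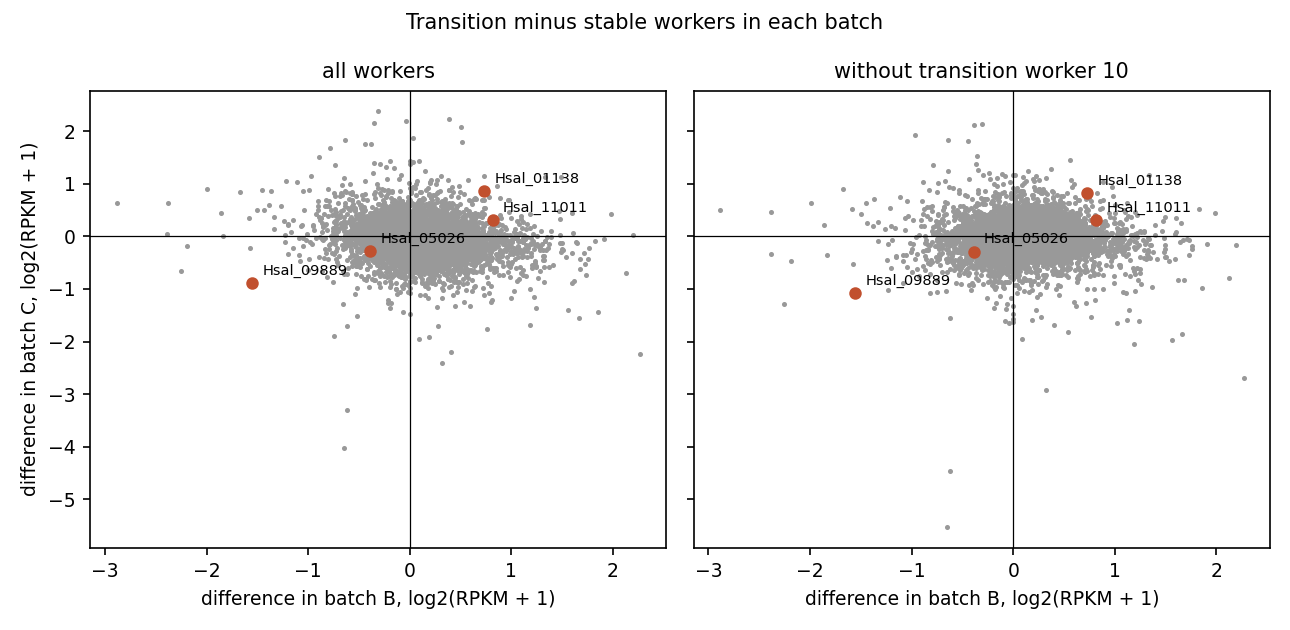
Difference of each tested row, transition minus stable on the log2(RPKM + 1) scale, in batch C (vertical axis) against batch B (horizontal axis), with all ants (left) and without transition worker 10 (right); each point is 1 row. The Pearson correlation across rows is -0.221 with all ants and 0.0191 without that ant, and Hsal_09889, at -1.55 in batch B, lies at the lower left in both.

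Within a batch, pairs of transition workers correlated less than pairs across the groups, and pairs of stable workers more. In batch B the mean correlation was 0.9365 for pairs of transition workers, 0.946 for pairs across groups and 0.9585 for pairs of stable workers. In batch C the means were 0.916, 0.945 and 0.967 in the same order. Without transition worker 10 those of batch C were 0.957, 0.963 and 0.967. Pairs from different batches had 0.922 within a group and 0.926 across groups. Leaving out transition worker 10 reversed that order, to 0.9326 within a group and 0.9312 across groups. The pairs share ants, so no test is given.

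Spread between ants was wider in the transition workers than in the stable workers of batch C with all ants, and not without transition worker 10. The median SD of a row on the log2(RPKM + 1) scale was 0.443 in the 4 transition workers and 0.237 in the 5 stable workers of batch C, and 81.3% of rows were wider in transition workers. Without transition worker 10 the medians were 0.215 and 0.237, and 46.8% of rows were wider. In batch B they were 0.339 and 0.323. Transition worker 10 had 4952623 reads and 11361 rows above 0, the fewest rows of the 21 workers, and 7.82% of its reads were in rRNA rows; the part of these in its profile was not tested.

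**Figure D5:**
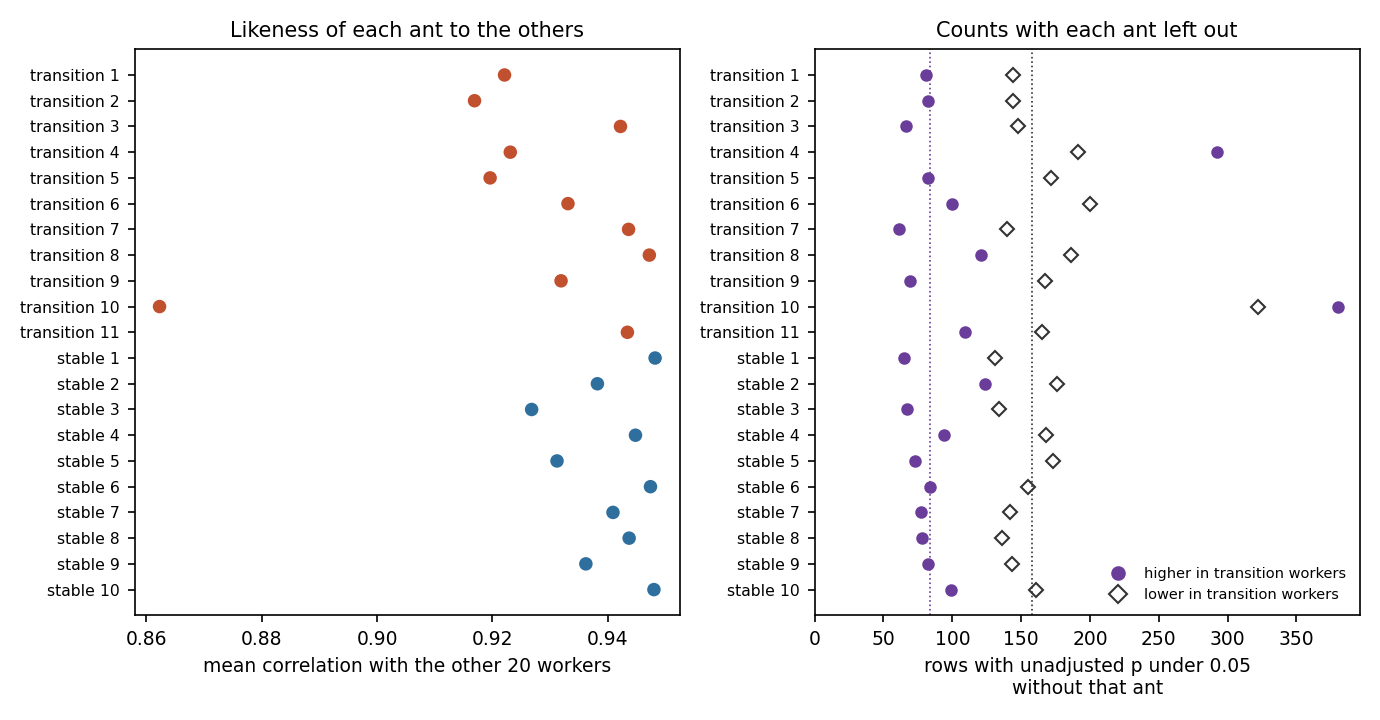
Each of the 21 workers from top to bottom, transition workers above stable workers, with the mean correlation with the other workers and the numbers of rows at an unadjusted p under 0.05 in limma when that ant is left out (dotted lines mark the counts with all ants). Transition worker 10 has the lowest correlation, 0.862, and leaving it out gives 380 higher and 322 lower rows, against 84 and 158 with all ants.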

How the data were processed

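Brains without optic lobes were dissected and RNA was sequenced from strand-specific libraries, per the labels' protocols. The authors deposited RPKM values, 1 column per ant. STAR 2.5.0b and DESeq2 are named, per the submitters' processing notes. The sources used here do not give the build, the annotation, the counting settings or whether both runs of an ant entered its column. The authors' deposited comparison of gamergates was not used. Each row's RPKM values were whole multiples of 1 read's worth. Of 404997 values, in the 15320 rows seen in 2 or more ants, 100% were whole to within 0.01 reads, which gave depth as reads in gene rows, read counts and row lengths. The unit was taken from each row's own values, so this share could hardly have been lower. Row lengths came out whole to within 0.05 bases in 99.9% of these rows. Relative depths deviated from the sums of reads in genes by at most 0.00103%.

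Groups came from the caste and colony labels, with each ant as a replicate. Since nests are not labelled, p-values measure only how far these ants differ among themselves. Values were fitted as log2(RPKM + 1) with limma 3.58.1 in R 4.3.3 (batch as a term, variance trend), two-sided, with Benjamini-Hochberg adjustment over all 11234 rows. A fold on this scale understates the change of low rows. Measures of single libraries were compared with 100000 permutations within batches, or with all of them within 1 batch. The steps were tested on simulated data. The members and lists were chosen with earlier results of these data known. Named rows were those called, then those with the smallest p and the same sign in batches B and C, and those with the largest differences. With no names for IDs, at most 2 IDs per direction are printed, and the gene and marker lists could not be applied. Reads of overlapping or near-identical genes cannot be told apart without the counting settings. Intervals from reads cover counting error only. Alternatives were other pseudocounts, filters, scalings, variance models, batches, prefixes and sets of ants.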

Additional observations from a re-analysis of the deposited data

Results flagged for a closer look

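In Hsal_01138, stable worker 2 stood at 1.92 RPKM, far from the other 9 stable workers, which lay between 0 and 0.290 RPKM. Its gap to the next ant was 0.849 of the group's range, above the critical value of Dixon's test for 10 samples. Of 8 quantities examined in the 10 stable workers this was the only one past its critical value. Chance gives about 1 such value in 20 for values with a normal spread, and here 6 of the 10 ants were at 0. The transition workers were not examined in this way, and among them transition worker 10 stood apart in mean correlation, at 0.862. The value rests on 12 reads in a library of 11033437 reads.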

How the results depend on the processing

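The row Hsal_09889 was lower in transition workers under every alternative run. It stayed called in 14 of 21 alternatives other than leaving out an ant, and the count of called rows was 1 with each ant left out in turn. These 14 include changes of filter, rescaling to gene reads and leaving out batch A, which cannot move the difference of this row. They also include the fit without transition workers 9 and 10, chosen after seeing the data. The count of called rows was 0 in 7 alternatives, where the difference of Hsal_09889 ran from -1.55 to -0.89. In batch B alone the adjusted p of Hsal_09889 in limma was 0.175, with 507 rows at an unadjusted p under 0.05, and in batch C alone it was 0.957, with 269 rows; these fits hold fewer ants. With the library prefix as a term it was 0.665, with 180 rows, and among ants with the prefix H it was 1, with 171 rows. With median-ratio scaling it was 0.0840, with 240 rows, and with limma voom on recovered reads 0.0954, with 197 rows; the cause was not tested. With the replicate number as a block the count was 0, the difference -1.36, the adjusted p in limma 1 and the unadjusted count 175. The sources used here do not say whether ants of the same number share anything more. Of 10 same-numbered pairs, 5 had a correlation of deviations from their groups above 0.1 (range -0.182 to 0.395), and 3 matched their own number best. With deviations taken from group and batch, 4 pairs were above 0.1. The block leaves 7 residual degrees of freedom, against 17.

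The count of unadjusted rows was 649 with array weights, and 756 without transition workers 9 and 10, an alternative chosen after seeing the data. With no minimum mean it was 391. The rows whose difference changed between batches numbered 0 to 1 with an ant left out, and 1 without transition worker 8. The difference in rRNA share, 0.913 percentage points with all ants, was -0.266 in batch B alone (exact permutation p = 0.0873, adjusted 0.254). Rescaling to gene reads changed no call, since the deposited depth is already that of gene rows. The values by level without transition workers 10 and 4, the library measures without transition worker 10 and the reads of Hsal_01138 without stable worker 2 were also chosen after seeing the data. The planned edgeR and DESeq2 fits were not run, since the deposited unit is RPKM. Of the 4 named rows, Hsal_01138 rested on the fewest reads, 50 in transition and 15 in stable workers.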

Other observations

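Reads in rRNA rows made up 0.357% to 19.96% of all reads in transition workers, with a median of 0.647%, and 0.456% to 7.04% in stable workers, with a median of 1.10%. The groups overlapped, at a permutation p of 0.775 (adjusted 0.775 over 4 measures of the libraries). For this share, the exact permutation p without batch A was 0.582 (adjusted 0.582). The highest shares were in transition worker 9, at 19.96%, and transition worker 10, at 7.82%, both of batch C. Within batch C the means were 7.52% ± 8.87 in transition workers and 3.50% ± 2.87 in stable workers (SD, n = 4 and 5), with an exact permutation p of 0.413 (adjusted 0.550).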
